A study of Mus musculus with 8 samples.

Results

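A set of 9 p53 target genes of cell death was followed in LT-HSC, the long-term repopulating blood stem cells of mouse bone marrow: the receptors Eda2r, Fas and Tnfrsf10b, the nuclease gene Aen, the membrane protein gene Perp, the BH3-only genes Bbc3 (Puma) and Pmaip1 (Noxa), and Pidd1 and Ei24. The members were listed by name, and all 9 of them were found among the 30516 genes with a tested probe set, each with 1 probe set. The gate for these cells was Lin- cKit+ Sca+ Flk2- CD48- CD150+, and their RNA was read on 8 arrays, 2 in each of 4 groups: CD169DTR/+ mice after 2 Gy of total body irradiation, CD169DTR/+ mice without irradiation, wild-type (WT) mice after 2 Gy, and WT mice without irradiation. CD169DTR/+ mice are heterozygous for the diphtheria toxin receptor driven by the gene of CD169 (Siglec1), and the toxin depletes their CD169+ macrophages. Mice of all 4 groups, WT included, received diphtheria toxin, were irradiated or sham-irradiated 72 h later, and gave their LT-HSC on day 5 after that. The design text puts the 2 replicates of each condition in distinct experiments. Neither the age of the mice nor whether an array holds 1 mouse or a pool is given in the sources used here, so p-values measure the spread between these arrays.

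The p53 protein is a transcription factor that is stabilised when DNA breaks are sensed. Its targets fall into genes of cell cycle arrest and repair and genes of cell death. Of the death genes, receptors of the TNF family carry signals from ligands on neighbouring cells to caspase-8, BH3-only proteins free Bax and Bak at mitochondria by binding their Bcl2-like inhibitors, and Pidd1 assembles the complex that activates caspase-2. Puma in particular is known for its role in the death of haematopoietic stem and progenitor cells after irradiation in mice.

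Values are log2 RMA values, so a difference of 1 is a doubling. The median of an array lay between 4.76 and 4.93 log2. Kit, used by the gate, had 14.25 to 14.93 log2 over the 8 arrays and Slamf1, the gene of CD150, 10.66 to 12.38. Flt3, the gene of Flk2, which the gate excludes, had 5.85 to 8.22. Siglec1, whose product marks the depleted macrophages and not the sorted cells, had 3.86 to 4.12. A pair of irradiated arrays stood apart on the first principal component of all tested probe sets, replicate 2 of CD169DTR/+ (39.7) and replicate 1 of WT (31.5), with the others between -26.6 and 7.2. They are named where a value rests on them. In sorted cells measured in bulk, fewer cells of a type and less RNA per cell cannot be told apart.

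The comparison of 2 Gy with no irradiation asks what the death genes did 5 days after irradiation. Eda2r had the largest difference of the 9 members in either genotype, at 2.17-fold in CD169DTR/+ LT-HSC and 4.72-fold in WT LT-HSC. Aen and Pmaip1 were higher by smaller amounts, 1.13-fold and 1.23-fold in CD169DTR/+ and 1.28-fold and 1.54-fold in WT, while Bbc3 was at 1.15-fold and 1.17-fold. In limma with adjustment over all probe sets, 0 of 9 members passed an adjusted p of 0.05 in CD169DTR/+, in WT or in the mean of both genotypes, and 0%, 0.00971% and 0.00971% of the 30906 probe sets tested did. The unadjusted p was under 0.05 for 0 of 9 members in CD169DTR/+ (6.73% of all probe sets), for 3 of 9 in WT (7.77%) and for 3 of 9 in the mean (9.2%). These 3 were Eda2r, Aen and Pmaip1 each time.

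In direction, 9 of 9 members had a log2 difference above 0 in CD169DTR/+, as had 56.7% of all probe sets, with a median of 0.50 over the members and 0.035 over all. In WT 7 of 9 did, against 64.4% of all, with medians of 0.355 and 0.08. In the mean of both genotypes 9 of 9 did, against 63.8% of all. Without both arrays that lay far from the others, 8 of 9 members were above 0 in each genotype, and the medians over the members were 0.27 in CD169DTR/+ and 0.285 in WT. Both irradiated arrays lay above both non-irradiated arrays for 5 of 9 members in CD169DTR/+ (Eda2r, Fas, Aen, Pmaip1 and Ei24), as they did for 17.8% of all probe sets. In WT this held for 4 of 9 (Eda2r, Aen, Bbc3 and Pmaip1), against 31.6% of all, and both lay below for 1 of 9 (Ei24), against 13.1%. Eda2r and Pmaip1 had all 4 irradiated arrays above all 4 non-irradiated ones, which held for 3.77% of all probe sets, and 0 of 9 members had all 4 below (1.72%).

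**Figure D1:**
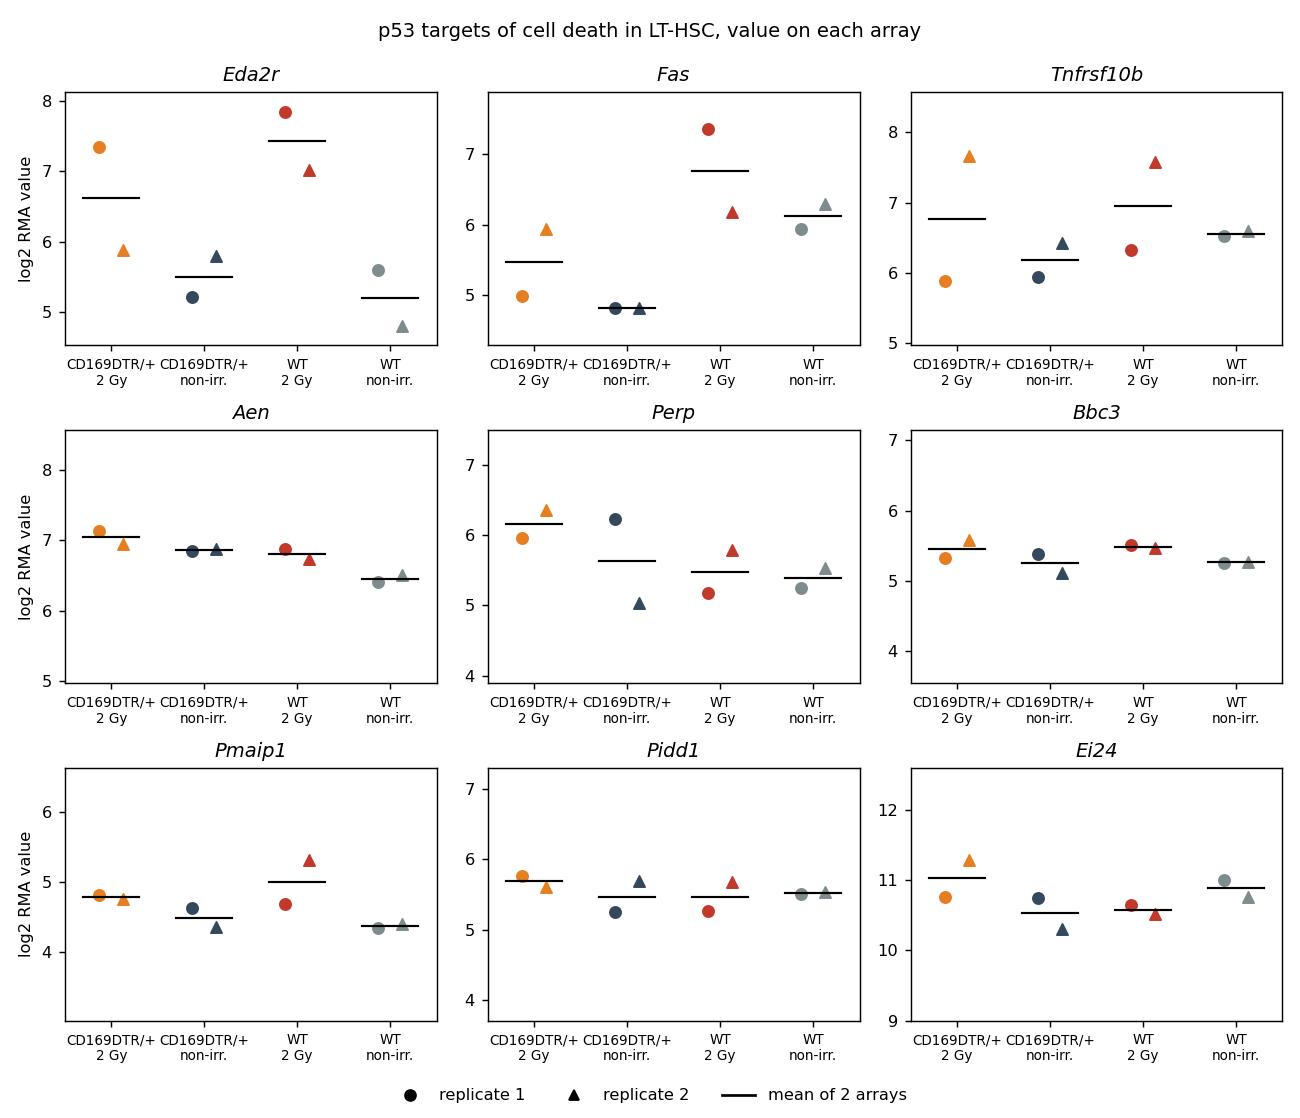
Value of each of the 9 members on each array (y axis, log2 RMA value, each panel spanning the same number of log2 units) by group (x axis), with circles for replicate 1, triangles for replicate 2 and a line at the mean of the 2 arrays. Eda2r and Pmaip1 have all irradiated arrays above all non-irradiated ones, and the triangles of Tnfrsf10b stand apart after 2 Gy in both genotypes.

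**Figure D2:**
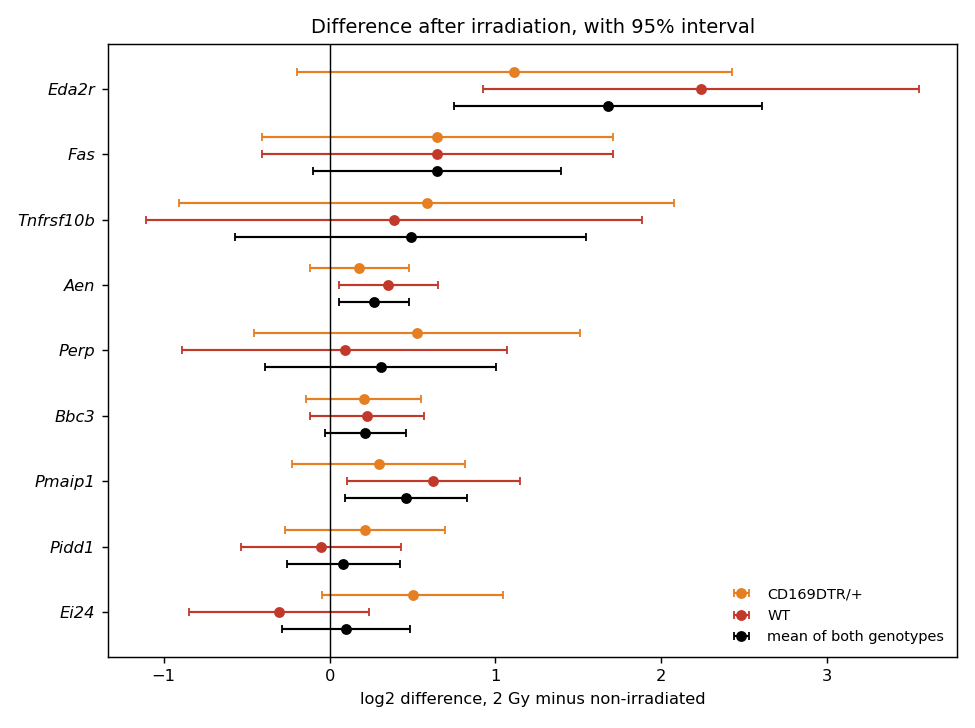
Log2 difference of 2 Gy minus non-irradiated LT-HSC (x axis) for each member (y axis) in CD169DTR/+, in WT and in the mean of both genotypes, with bars for the 95% interval of the limma fit. The intervals of Eda2r, Aen and Pmaip1 lie above 0 in WT and in the mean, and all 9 intervals in CD169DTR/+ include 0.

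The promoters of the members were read to show the sequence next to these values, because the members are known p53 targets. Windows were read for 6 members (Eda2r, Fas, Aen, Bbc3, Pidd1 and Ei24), 9 in all, at RefSeq start sites on mouse build GRCm38.p6. Each is the 250 bases before a start. Tnfrsf10b, Perp and Pmaip1 are named without sequence and are not in the counts of windows or genes. Whether their promoters hold a match was not tested. The windows shown are those of Eda2r, with the largest difference, of Aen and Bbc3, whose arrays varied least, and of Ei24, whose direction differed by genotype. For Aen it is the 1 of 2 windows with a match, and for Bbc3 the first of 3 along the chromosome. Capitals mark matches to the p53 half-site consensus with at most 1 mismatch outside its core C and G. The consensus reads the same on both strands.
Eda2r promoter, chrX:97377210-97377459, minus strand: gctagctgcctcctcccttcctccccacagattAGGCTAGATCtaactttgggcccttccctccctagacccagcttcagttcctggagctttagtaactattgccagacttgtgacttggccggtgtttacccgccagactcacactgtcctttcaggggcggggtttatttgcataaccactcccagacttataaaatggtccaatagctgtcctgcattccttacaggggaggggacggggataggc
Aen promoter, chr7:78895808-78896057, plus strand: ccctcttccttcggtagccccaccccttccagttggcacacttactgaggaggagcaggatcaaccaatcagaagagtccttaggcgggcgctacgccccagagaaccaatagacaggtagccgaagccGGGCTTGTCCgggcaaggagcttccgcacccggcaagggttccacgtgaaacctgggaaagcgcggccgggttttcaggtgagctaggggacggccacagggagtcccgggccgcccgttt
Bbc3 promoter, chr7:16309333-16309582, plus strand: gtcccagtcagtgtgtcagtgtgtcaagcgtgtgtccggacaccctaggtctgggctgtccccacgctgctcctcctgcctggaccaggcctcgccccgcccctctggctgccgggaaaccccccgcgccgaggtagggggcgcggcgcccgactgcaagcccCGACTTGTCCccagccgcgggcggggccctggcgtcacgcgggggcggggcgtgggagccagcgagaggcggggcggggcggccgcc
Ei24 promoter, chr9:36797335-36797584, minus strand: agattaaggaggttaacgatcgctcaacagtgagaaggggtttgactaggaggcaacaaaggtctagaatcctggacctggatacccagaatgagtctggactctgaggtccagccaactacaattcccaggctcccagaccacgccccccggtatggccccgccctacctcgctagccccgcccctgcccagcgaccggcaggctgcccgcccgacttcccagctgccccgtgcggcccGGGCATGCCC

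Of the 9 windows, 2 held an exact match to the half-site (1 of 2 for Aen and that of Ei24), and 7.1% of 32841 promoter windows of the same length did. With 1 mismatch allowed, 6 of the 9 windows held a match, against 44.7% of all windows. By gene, 5 of the 6 held a match in at least 1 window, and no share of all genes was computed to set beside this. The GC content of the 9 windows lay between the 53.2 percentile (Eda2r) and the 99.3 percentile (Bbc3). Shares among windows of like GC content were not computed. In the windows printed, the Aen match began 121 bases before the start, the Bbc3 match 87, the Ei24 match 10 and the Eda2r match 217. Of the windows not printed, the second of Bbc3 held 2 matches, 146 and 93 bases before its start, that of Pidd1 held 1 at 49 bases, and the third of Bbc3, the first of Aen and that of Fas held none. The GC box GGGCGG, searched on both strands, was in 8 of 9 windows and in 32.7% of all. Eda2r held the 1 match to TATAAA among the 9 windows, 58 bases before its start (12.4% of all windows, both strands), and was the 1 window with a ratio of observed to expected CpG (0.23) below the median of all (0.374). The windows of the other members had 0.554 (Fas) to 0.946 (Bbc3). The 2 windows of Aen overlap each other, as do 2 of the 3 of Bbc3. A match describes these letters and says nothing of binding.

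Eda2r, a receptor for ectodysplasin A2 that has no death domain and signals through TRAF proteins, had 7.35 and 5.88 log2 in CD169DTR/+ 2 Gy LT-HSC, against 5.21 and 5.79 in the non-irradiated ones. It had 7.85 and 7.02 in WT 2 Gy LT-HSC, against 5.59 and 4.8 in the non-irradiated ones. The WT groups were well apart, whereas CD169DTR/+ 2 Gy replicate 2 exceeded the higher non-irradiated array by less than the replicates of any group differed. The group means were 6.615 ± 1.04 in CD169DTR/+ 2 Gy, 5.50 ± 0.41 in CD169DTR/+ non-irradiated, 7.435 ± 0.59 in WT 2 Gy and 5.195 ± 0.56 in the non-irradiated WT group (SD, n = 2). The log2 difference was 1.115 ± 0.55 (SE) in CD169DTR/+, with a 95% interval of -0.198 to 2.43 (adjusted p = 0.807 in limma). In WT it was 2.24 ± 0.55 (0.927 to 3.55, adjusted p = 0.495), and over both genotypes 1.68 ± 0.39 (0.749 to 2.61, adjusted p = 0.371). The CD169DTR/+ difference rested on single arrays, at 0.38 without 2 Gy replicate 1 and 1.85 without 2 Gy replicate 2. In order of level the groups were WT 2 Gy, CD169DTR/+ 2 Gy, CD169DTR/+ non-irradiated and WT non-irradiated, and each neighbouring pair differed by no more than 1.115 log2, with overlapping arrays except for both CD169DTR/+ groups.

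Fas, the death domain receptor that recruits Fadd and caspase-8, had 4.99 and 5.94 log2 in CD169DTR/+ 2 Gy LT-HSC, against 4.81 and 4.82 in the non-irradiated ones. In WT it had 7.36 and 6.18 after 2 Gy, against 5.94 and 6.30 without irradiation. The high irradiated value in each genotype came from the 1 array that also lay far from the others over all probe sets. The mean log2 difference was 0.65 ± 0.44 (SE) in both genotypes, with an interval of -0.408 to 1.71 (adjusted p = 0.874 in CD169DTR/+ and 0.715 in WT, limma). Without the far arrays it was 0.175 in CD169DTR/+ and 0.06 in WT.

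Tnfrsf10b, the mouse receptor for the ligand TRAIL, had 5.88 and 7.66 log2 in CD169DTR/+ 2 Gy LT-HSC, against 5.94 and 6.43 in the non-irradiated ones. In WT it had 6.32 and 7.57 after 2 Gy, against 6.52 and 6.59 without irradiation. Both high values were those of replicate 2 after 2 Gy, and both replicate 1 arrays after 2 Gy lay below every non-irradiated array of their genotype. Irradiated minus non-irradiated was 0.585 ± 0.62 in CD169DTR/+ and 0.39 ± 0.62 in WT (SE, adjusted p = 0.939 and 0.852 in limma). It was -0.305 without CD169DTR/+ 2 Gy replicate 2 and -0.235 without WT 2 Gy replicate 2. Replicate 1 minus replicate 2 was -1.78 and -0.49 in the irradiated and non-irradiated CD169DTR/+ groups and -1.25 and -0.07 in those of WT. Its residual SD of 0.789 log2 was above that of 98.6% of probe sets.

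Aen, a nuclease that degrades DNA and RNA during apoptosis, had 7.13 and 6.95 log2 in CD169DTR/+ 2 Gy LT-HSC, against 6.85 and 6.87 in the non-irradiated ones. It had 6.88 and 6.74 in WT 2 Gy LT-HSC, against 6.41 and 6.50 in the non-irradiated ones. The irradiated arrays lay above the non-irradiated ones within each genotype, while the WT 2 Gy arrays lay around the level of non-irradiated CD169DTR/+ ones. The log2 difference was 0.18 ± 0.12 (SE, interval -0.116 to 0.476, adjusted p = 0.877 in limma) in CD169DTR/+. In WT it was 0.355 ± 0.12 (0.059 to 0.651, adjusted p = 0.583), and over both genotypes 0.268 ± 0.087 (0.058 to 0.477, adjusted p = 0.474). Aen had the smallest residual SD of the members, 0.087 log2, where the median of all probe sets was 0.182.

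Perp, a tetraspan membrane protein of desmosomes that p53 induces during apoptosis, had 5.95 and 6.36 log2 in CD169DTR/+ 2 Gy LT-HSC, against 6.23 and 5.03 in the non-irradiated ones. In WT it had 5.17 and 5.79 after 2 Gy, against 5.25 and 5.53 without irradiation. The groups overlapped in both genotypes. Its log2 difference was 0.525 ± 0.41 in CD169DTR/+ and 0.09 ± 0.41 in WT (SE, adjusted p = 0.896 and 0.953 in limma), and the first was -0.075 without CD169DTR/+ non-irradiated replicate 2. The WT value was -0.03 when each array was centred on its median.

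Bbc3, the gene of the BH3-only protein Puma, had 5.33 and 5.58 log2 in CD169DTR/+ 2 Gy LT-HSC, against 5.38 and 5.12 in the non-irradiated ones. It had 5.51 and 5.47 in WT 2 Gy LT-HSC, against 5.26 and 5.27 in the non-irradiated ones. The WT groups were apart with replicates 0.04 and 0.01 log2 from each other, and the CD169DTR/+ groups overlapped. As a log2 difference this was 0.205 ± 0.14 (SE, interval -0.14 to 0.55, adjusted p = 0.88 in limma) in CD169DTR/+ and 0.225 ± 0.14 (-0.12 to 0.57, adjusted p = 0.703) in WT. A doubling of the array value lies above both intervals. The values of Bbc3 lay not far above the median of the arrays (54.9 to 59.6 percentile of the array). Whether array values at this level follow the RNA in proportion was not tested.

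Pmaip1, the gene of Noxa, a BH3-only protein that binds Mcl1, had 4.81 and 4.76 log2 in CD169DTR/+ 2 Gy LT-HSC, against 4.63 and 4.35 in the non-irradiated ones. It had 4.68 and 5.31 in WT 2 Gy LT-HSC, against 4.34 and 4.4 in the non-irradiated ones. These values lay near the median of the arrays (41.1 to 56.3 percentile of the array). All irradiated arrays were above all non-irradiated ones, the nearest being 4.68 in WT 2 Gy replicate 1 and 4.63 in CD169DTR/+ non-irradiated replicate 1. The log2 difference was 0.295 ± 0.22 (SE, interval -0.226 to 0.816, adjusted p = 0.888 in limma) in CD169DTR/+. In WT it was 0.625 ± 0.22 (0.104 to 1.15, adjusted p = 0.582). That WT value was 0.94 with irradiated replicate 1 left out and 0.31 with irradiated replicate 2 left out. Over both genotypes it was 0.46 ± 0.15 (0.092 to 0.828, adjusted p = 0.479).

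Pidd1, the scaffold that joins Cradd and caspase-2, had 5.76 and 5.61 log2 in CD169DTR/+ 2 Gy LT-HSC, against 5.25 and 5.69 in the non-irradiated ones. In WT it had 5.26 and 5.68 after 2 Gy, against 5.50 and 5.54 without irradiation. The irradiated and non-irradiated arrays overlapped within each genotype, and the log2 difference was 0.215 ± 0.20 in CD169DTR/+ and -0.05 ± 0.20 in WT (SE, adjusted p = 0.922 and 0.947 in limma). Its probe set carried the current symbol and the older name Lrdd of the same gene.

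Ei24, a membrane protein of the endoplasmic reticulum that p53 induces after etoposide, had 10.76 and 11.29 log2 in CD169DTR/+ 2 Gy LT-HSC, against 10.74 and 10.31 in the non-irradiated ones. It had 10.64 and 10.51 in WT 2 Gy LT-HSC, against 11.00 and 10.76 in the non-irradiated ones. The irradiated arrays lay above the non-irradiated ones in CD169DTR/+, by 0.02 log2 at the nearest, and below them in WT. Its log2 difference was 0.50 ± 0.23 (SE, interval -0.045 to 1.04, adjusted p = 0.776 in limma) in CD169DTR/+ and -0.305 ± 0.23 (-0.85 to 0.24, adjusted p = 0.726) in WT.

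The comparison of CD169DTR/+ with WT LT-HSC asks whether the level of these genes differed in mice depleted of CD169+ macrophages, after 2 Gy and without irradiation. Fas was lower in CD169DTR/+ by the same 1.305 log2 in both states, at 0.405 of the WT level. Aen was higher, by 1.17-fold after 2 Gy and by 1.32-fold without irradiation. With limma 0 of 9 members passed in either state, as did 0% of all probe sets. The unadjusted p was under 0.05 for 1 of 9 after 2 Gy (Fas, 7.46% of all) and for 2 of 9 without irradiation (Fas and Aen, 4.34%). Of the 9 members 4 lay above 0 after 2 Gy (45.6% of all) and 4 without irradiation (57%).

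For Fas the values were 4.99 and 5.94 log2 in CD169DTR/+ against 7.36 and 6.18 in WT after 2 Gy, and 4.81 and 4.82 against 5.94 and 6.30 without irradiation. The highest CD169DTR/+ array, 2 Gy replicate 2, was level with the lowest WT array, non-irradiated replicate 1, and the other CD169DTR/+ arrays lay below all WT arrays. The log2 difference was -1.305 ± 0.44 (SE) in each state, with an interval of -2.36 to -0.247, and the adjusted p in limma was 0.652 after 2 Gy and 0.999 without irradiation. Over 17 alternative settings it stayed between -1.895 and -0.715 after 2 Gy and between -1.485 and -1.125 without irradiation, and it did not pass in any. Both ends of the first range came from leaving out an irradiated WT array, -0.715 for replicate 1 and -1.895 for replicate 2. In order of level the groups were WT 2 Gy (6.77 ± 0.83), WT non-irradiated (6.12 ± 0.26), CD169DTR/+ 2 Gy (5.465 ± 0.67) and CD169DTR/+ non-irradiated (4.815 ± 0.007, SD, n = 2). The arrays of neighbouring groups overlapped or met, except for the pair of CD169DTR/+ groups.

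Aen had a log2 difference between CD169DTR/+ and WT of 0.23 ± 0.12 after 2 Gy (SE, interval -0.066 to 0.526, adjusted p = 0.722 in limma) and of 0.405 ± 0.12 without irradiation (0.109 to 0.701, adjusted p = 0.999). Both CD169DTR/+ arrays lay above both WT arrays in each state. Such a separation upwards held after 2 Gy for 3 of 9 members (Aen, Perp and Ei24, against 15.8% of all probe sets) and without irradiation for 1 of 9 (Aen, against 19.1%). A separation downwards held for 1 of 9 after 2 Gy (Fas, against 18.9%) and for 3 of 9 without irradiation (Fas, Tnfrsf10b and Ei24, against 11.9%). Perp stood 0.675 ± 0.41 higher in CD169DTR/+ after 2 Gy and 0.24 ± 0.41 higher without irradiation (adjusted p = 0.758 and 0.999). The other members lay between -0.82 (Eda2r) and 0.45 (Ei24) after 2 Gy and between -0.37 (Tnfrsf10b) and 0.305 (Eda2r) without irradiation.

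**Figure D3:**
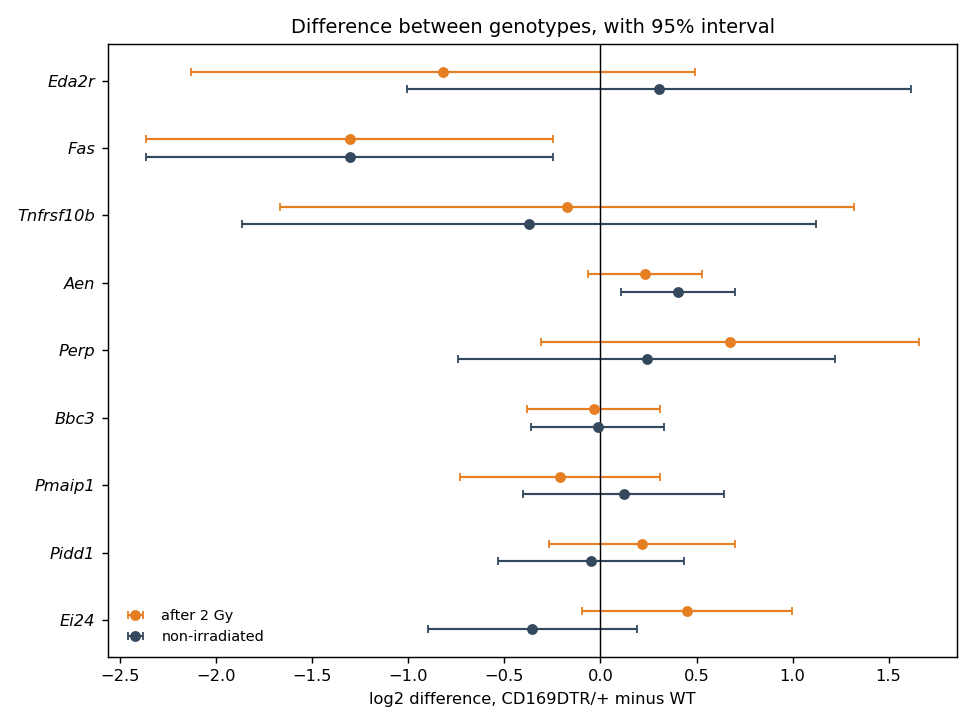
Log2 difference of CD169DTR/+ minus WT LT-HSC (x axis) for each member (y axis), after 2 Gy and without irradiation, with bars for the 95% interval of the limma fit. Fas lies at -1.305 in both states with intervals below 0, and Aen is the 1 member whose interval lies above 0, without irradiation.

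Whether the difference after irradiation itself differed between genotypes was tested as an interaction, CD169DTR/+ minus WT. In limma 0 of 9 members passed (0% of all probe sets), and 1 of 9, Ei24, had an unadjusted p under 0.05 (5.11% of all). The interaction was above 0 for 4 of 9 members, as for 41.7% of all probe sets. Ei24 had 0.805 ± 0.32 log2 (SE, interval 0.034 to 1.58, adjusted p = 0.941). Eda2r, whose difference was smaller in CD169DTR/+, had -1.125 ± 0.78 (-2.98 to 0.731, adjusted p = 0.962), and 0.025 without both far arrays. For Fas the interaction was 0 with an interval of -1.496 to 1.496, and for Bbc3 it was -0.02 (-0.507 to 0.467). The intervals are wide enough to hold a 2-fold difference between genotypes for Eda2r, Fas, Tnfrsf10b, Perp, Pmaip1 and Ei24.

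The genes around the members were followed in 6 lists of the p53 and death receptor pathways. Like the members, these lists were chosen with earlier results of these data known, so their counts are not independent of the data. Of the other p53 targets, 18 of 22 measured genes lay above 0 for irradiation in the mean of both genotypes, 2 passed upwards and 0 downwards, and 11 were higher and 1 lower at an unadjusted p under 0.05 (9.2% of all probe sets in either direction). Its median was 0.452 log2, against 0.308 over the 9 death members and 0.055 over all probe sets. Cdkn1a, the inhibitor of cyclin-dependent kinases, had 13.24 and 13.23 log2 in CD169DTR/+ 2 Gy LT-HSC, against 9.79 and 9.34 in the non-irradiated ones, and 13.06 and 13.41 in WT 2 Gy LT-HSC, against 7.86 and 8.39. It rose by 4.39 ± 0.17 over both genotypes (SE, adjusted p = 0.00213 in limma). Phlda3, an inhibitor of Akt, rose by 1.31 ± 0.08 (adjusted p = 0.0254). Both had a larger ratio of difference to SE than any death member. Mdm2, the ubiquitin ligase of p53, had 0.17 ± 0.165 over both genotypes (adjusted p = 0.731), and 0 of 13 measured regulators of p53 passed.

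Among death receptor ligands and adaptors 0 of 14 passed in the mean of both genotypes, 6 lay above 0 and 8 below, and the median was -0.022. Tnfsf10, the gene of TRAIL and so of the ligand of Tnfrsf10b, had 8.18 and 8.70 log2 in CD169DTR/+ 2 Gy LT-HSC, against 9.42 and 9.28, and 8.52 and 7.60 in WT 2 Gy LT-HSC, against 8.96 and 8.53. Its difference was -0.797 ± 0.24 (SE, adjusted p = 0.445 in limma). Fasl, the ligand of Fas, had 3.57 to 4.35 log2 over the arrays and Eda, the gene of ectodysplasin, 3.96 to 4.18, which is below the median of every array. Fadd had -0.025 ± 0.24 and Casp8 0.235 ± 0.13 (adjusted p = 0.972 and 0.601), and Cradd, the partner of Pidd1, had -0.122 ± 0.29 (adjusted p = 0.89).

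In the other TNF receptors 0 of 11 passed in the mean and 5 lay above 0. Tnfrsf1b and Tnfrsf1a, both receptors of TNF, had -0.94 ± 0.24 and -0.352 ± 0.13 (SE, adjusted p = 0.402 and 0.505 in limma). In mitochondrial apoptosis 0 of 22 passed and 12 lay above 0, among them Bcl2l1, the gene of the survival protein Bcl-xL, with 0.362 ± 0.08 (adjusted p = 0.348). Casp2, the caspase activated through Pidd1, had -0.59 ± 0.20 (adjusted p = 0.478). In the list of apoptotic nucleases and relatives of Aen 0 of 7 passed and 2 lay above 0. In CD169DTR/+ alone 0 genes of the 6 lists passed, where 6.73% of all probe sets had an unadjusted p under 0.05 in either direction. At that level 9 of 22 other p53 targets were higher and 2 lower, 2 of 22 mitochondrial genes were higher and 0 lower, and 1 of 7 nucleases was higher and 1 lower. Among the ligands and adaptors 1 of 14 was lower, as was 1 of 11 other TNF receptors, and 0 of 13 p53 regulators had such a p. In WT alone Cdkn1a passed, and 7.77% of all probe sets had an unadjusted p under 0.05 in either direction. At that level 5 of 22 other p53 targets were higher and 1 lower. The calls in the other lists were all lower, at 2 of 14 ligands and adaptors, 1 of 11 other TNF receptors and 1 of 13 p53 regulators, with 0 of 22 mitochondrial genes and 0 of 7 nucleases. Between genotypes and in the interaction 0 genes of the 6 lists passed, and Cdkn1a, at 1.44 ± 0.24 log2 higher in CD169DTR/+ without irradiation, had an adjusted p of 0.954 (unadjusted p = 0.000656).

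**Figure D4:**
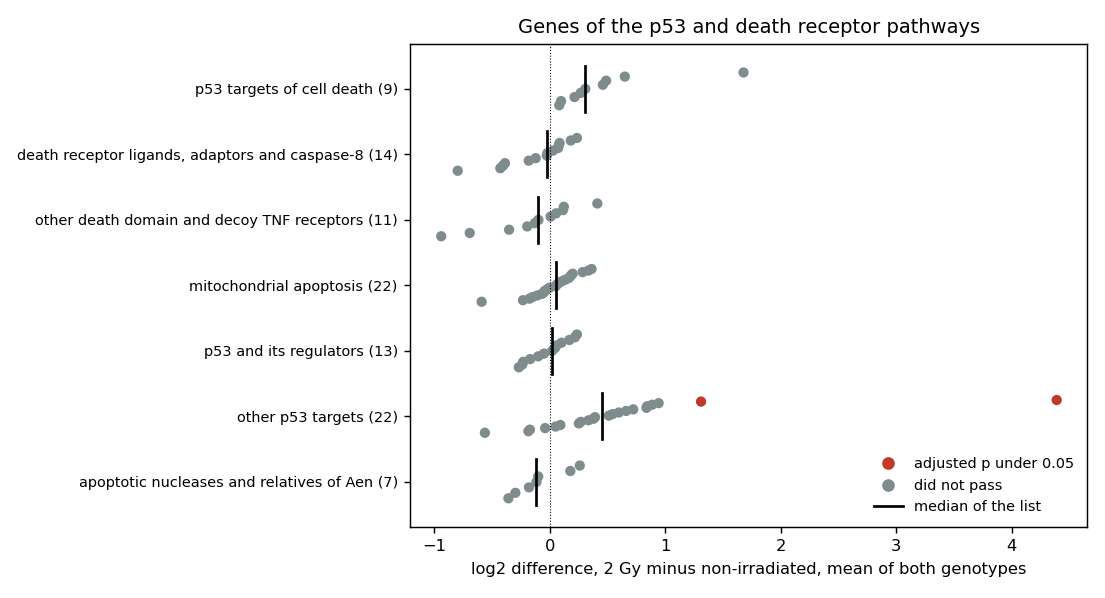
Log2 difference of 2 Gy minus non-irradiated LT-HSC in the mean of both genotypes (x axis) for the measured genes of each list (y axis, number of genes in brackets), with a bar at the median of the list and red for an adjusted p under 0.05. The other p53 targets have a median of 0.452 with Cdkn1a at 4.39, the 9 death members a median of 0.308 with Eda2r at 1.68, and the other 5 lists have medians from -0.115 to 0.056.

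For members whose group means spanned at least 1 log2, Eda2r (2.24) and Fas (1.955), the genes with the most similar profile over the 8 arrays were sought, by the mean absolute difference of values centred on each gene's mean. For Eda2r these were Clec1b, a platelet receptor (0.386 log2), Mmp2, a matrix metalloproteinase (0.396), and the microRNA gene Mir7078 (0.406), where the median of all probe sets was 0.901. For Fas they were Cd46, a complement regulator (0.349), Prkaa2, a catalytic subunit of AMPK (0.369), and Mospd2 (0.391), against a median of 0.70. These genes were picked on the same 8 arrays, so their likeness is not a separate result. Like Eda2r, Clec1b, which is also in the megakaryocyte marker list, was highest in WT 2 Gy replicate 1 (9.21). It was next in CD169DTR/+ 2 Gy replicate 1 (8.52). In WT 2 Gy replicate 2 Clec1b was at 7.53, near the 7.37 of CD169DTR/+ non-irradiated replicate 2, while Eda2r was at 7.02, above every non-irradiated array. Like Fas, Cd46 was highest in WT 2 Gy replicate 1 (7.34).

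**Figure D5:**
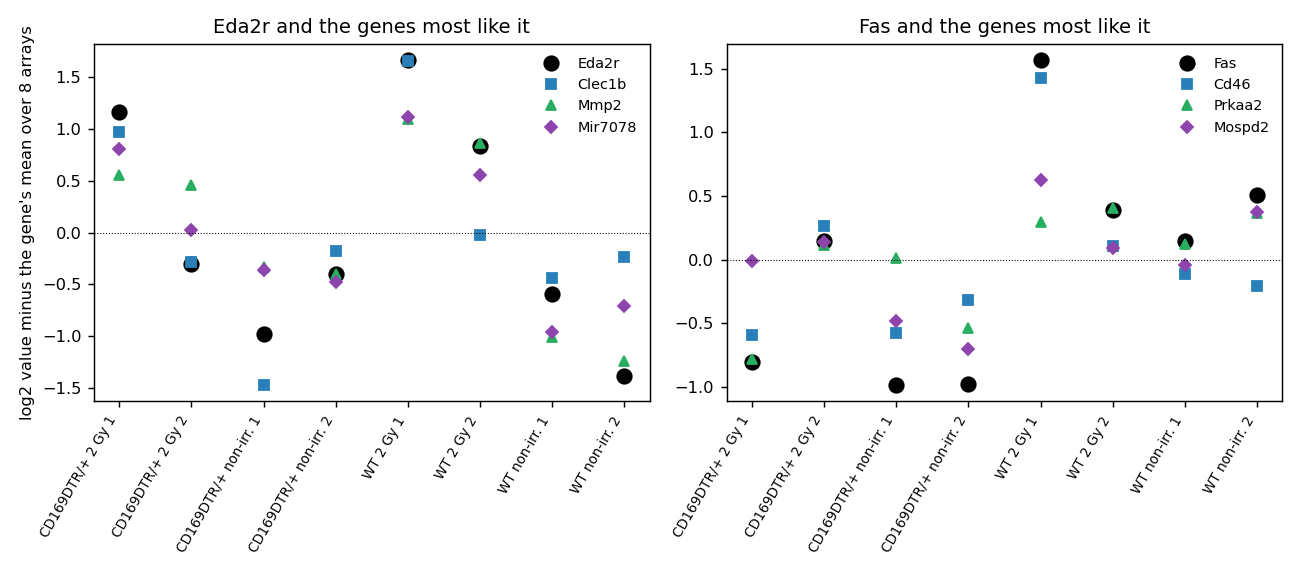
Values of Eda2r and Fas and of the 3 genes most like each (y axis, log2 value minus the gene's mean over the 8 arrays) on each array (x axis). The genes were picked on these same values. Clec1b is high with Eda2r in both replicate 1 arrays after 2 Gy, but not in WT 2 Gy replicate 2. Cd46 is high with Fas in WT 2 Gy replicate 1.

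Lists of marker genes, of LT-HSC and of other cell types, moved with some of these arrays. Which cells the RNA of a marker came from was not tested. In the megakaryocyte list Pf4 had 15.48 to 16.63 log2 over the 8 arrays, non-irradiated ones included, and Mpig6b 3.61 to 4.05. The mean over 9 measured megakaryocyte markers was 9.25 and 8.67 log2 in CD169DTR/+ 2 Gy LT-HSC, against 8.21 and 8.59 in the non-irradiated ones, and 9.86 and 8.55 in WT 2 Gy LT-HSC, against 8.67 and 8.68. The arrays where Eda2r was highest, both replicate 1 arrays after 2 Gy, were those with the highest megakaryocyte mean. In WT 2 Gy replicate 2 Eda2r, at 7.02 log2, was also above every non-irradiated array. The megakaryocyte mean there, 8.55, was below both non-irradiated WT arrays. Of these markers 7 of 9 lay above 0 for irradiation in CD169DTR/+, with a median of 0.285, and 8 of 9 in WT, with a median of 0.585. The mean over 12 neutrophil and granulocyte-monocyte progenitor markers was 9.24 and 8.53 in CD169DTR/+ 2 Gy, against 8.68 and 9.39, and 9.39 and 10.15 in WT 2 Gy, against 7.44 and 8.30. WT 2 Gy replicate 2, where Pmaip1 was highest, had the highest of these. CD169DTR/+ non-irradiated replicate 2, with Pmaip1 at only 4.35 log2, had a mean of 9.39 over these markers. For irradiation 4 of 12 of these markers lay above 0 in CD169DTR/+, with a median of -0.122, and 12 of 12 in WT, with a median of 1.735. Their interaction was below 0 for 12 of 12, with a median of -1.567. The mean over 9 LT-HSC markers was 9.39 to 9.49 in CD169DTR/+ 2 Gy, against 9.65 to 9.76, and 9.48 to 9.79 in WT 2 Gy, against 9.95 to 9.96. For irradiation 6 of 9 of them lay below 0 in CD169DTR/+ (median -0.34) and 6 of 9 in WT (median -0.565). At an unadjusted p under 0.05 in limma 3 were lower in CD169DTR/+ (6.73% of all probe sets) and 5 in WT (7.77%), and 0 were higher. The mean over 7 erythroid markers was 7.13 and 6.21 in CD169DTR/+ 2 Gy, against 7.19 and 9.23, and 6.77 and 7.84 in WT 2 Gy, against 8.33 and 7.84. For irradiation 7 of 7 of them lay below 0 in CD169DTR/+ (median -0.90) and 4 of 7 in WT (median -0.83). The mean over 8 mast cell, basophil and eosinophil markers was 8.47 and 8.17 in CD169DTR/+ 2 Gy, against 6.64 and 7.30, and 7.65 and 8.09 in WT 2 Gy, against 8.33 and 7.15. Of these 7 of 8 lay above 0 in CD169DTR/+ (median 0.81) and 3 of 8 in WT (median -0.238). In limma 4 of 8 were higher in CD169DTR/+ at an unadjusted p under 0.05 (6.73% of all probe sets) and 0 of 8 in WT (7.77%). At that level 0 of 12 neutrophil list markers were higher in CD169DTR/+ and 8 of 12 in WT. Of the megakaryocyte markers 1 of 9 was higher in CD169DTR/+ and 2 of 9 in WT. Of the erythroid ones 1 of 7 was lower in CD169DTR/+ and 0 of 7 in WT. The medians of the other 4 marker lists lay between 0 and 0.215 in CD169DTR/+ and between -0.175 and 0.268 in WT. RMA values have no true 0, and the lowest gene on average was Mpig6b (3.77) in the megakaryocyte list and Cebpe (4.85) in the neutrophil list. The part of any cell type in the values of the members was not tested.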

How the data were processed

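Each array gave 1 value per probe set, made by the authors with RMA per the submitters' processing notes. The deposited values were taken as log2 by the convention of RMA, since the table does not state the base. No further normalisation, filter or pseudocount was applied. Of 40161 probe sets, 30906 were tested: 30294 with 1 symbol and 612 whose symbols are names of 1 Entrez gene in RefSeq (GRCm38.p6), Pidd1 among them. The members and lists were chosen with earlier results of these data known. Named genes are the 9 members, for each pathway list and comparison genes that passed, up to 4 with the smallest p and a fixed few, and the 3 genes most like a member.

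One model with the means of the 4 groups was fitted with limma 3.58.1 (lmFit, eBayes) in R 4.3.3, two-sided, with Benjamini-Hochberg adjustment over all tested probe sets within a comparison and 0.05 as threshold. The fit was tested on simulated data. Bax, Trp53 and 5 other listed pathway genes without a tested probe set are not analysed here. Figures used matplotlib 3.10.9. The alternatives were an intensity trend, a dim filter at the 40th percentile, all probe sets, cyclic loess, median centring, the replicate block, only the groups compared and each array left out. Leaving out both far 2 Gy arrays and using only probe sets with 1 symbol, were alternatives added after seeing the data. No gene of the 9 had another probe set among those tested. The 1533 probe sets with several genes were not searched for the members.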

Additional observations from a re-analysis of the deposited data

Results flagged for a closer look

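Ei24 was singled out because both irradiated arrays lay on opposite sides of their controls in the 2 genotypes. Its log2 difference after irradiation was 0.50 in CD169DTR/+ and -0.305 in WT LT-HSC. The interaction was 0.805 ± 0.32 (SE), with an unadjusted p of 0.0429 and an adjusted p of 0.941 in limma, so it did not pass. In CD169DTR/+ the nearest irradiated and non-irradiated arrays were 0.02 log2 apart.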

How the results depend on the processing

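In limma 0 of the 9 members passed in any of the 6 comparisons under any alternative, and the lowest adjusted p was 0.273, for Eda2r over both genotypes without CD169DTR/+ 2 Gy replicate 1. Of 894 recomputed log2 differences of members, 38 reversed direction, all of them differences that had not passed. The other 856 did not reverse. These include the Fas interaction, which was 0 in the main fit and so had no direction to keep. It lay between -0.59 and 0.59 over its settings. The cause of the reversals was not tested.

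The replicate numbers were not taken as pairs, since the labels do not say that a number marks an experiment. The correlation of replicate differences between groups lay between -0.088 and 0.163. Correlations over all tested probe sets cannot decide whether the arrays were paired. With the replicate block 0 members passed in each comparison, as without it. The number of probe sets that passed was 3 for irradiation in WT, 3 over both genotypes and 0 in the other 4 comparisons, with and without the block.

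The count of probe sets that passed for irradiation in CD169DTR/+, 0, was 2 with the intensity trend, all probe sets or cyclic loess, 1 with the dim filter and 4 without both far 2 Gy arrays. For irradiation in WT, 3, it was 2 with the intensity trend, 1 with cyclic loess and 0 with only the compared groups. A setting not named here need not have kept exactly 3. Over both genotypes, 3, it was 1 with the trend. Between genotypes, 0, it was 1 without irradiation with the trend, and after 2 Gy 1 with all probe sets and 2 without both far arrays. In the interaction, 0, it was 1 without both far arrays. With 1 array left out in turn the count lay between 0 and 5 for CD169DTR/+, 0 and 17 for WT, 1 and 9 over both, 0 and 13 between genotypes after 2 Gy, 0 and 6 without irradiation, and 0 and 4 in the interaction. The spread of a group with 1 array left was taken from the rest.

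Median centring moved the median of all probe sets for irradiation in WT to -0.04, against 0.08 as deposited, and cyclic loess moved it to -0.005. Perp in WT was then -0.03 with median centring. Bbc3 between genotypes after 2 Gy was 0.03 and its interaction 0.075 with median centring, and 0.026 and 0.056 with cyclic loess. Without both far arrays, Pidd1 in WT was 0.16, Tnfrsf10b in CD169DTR/+ -0.305, Ei24 over both genotypes -0.068, Eda2r between genotypes after 2 Gy 0.33, and the interaction 0.025 for Eda2r, -1.32 for Tnfrsf10b and -0.08 for Perp. With 1 array left out, the range for irradiation in CD169DTR/+ was -0.305 to 1.475 for Tnfrsf10b, -0.075 to 1.125 for Perp and -0.005 to 0.435 for Pidd1. For irradiation in WT it was -0.235 to 1.015 for Tnfrsf10b, -0.22 to 0.40 for Perp and -0.26 to 0.16 for Pidd1. Over both genotypes it was -0.028 to 0.192 for Pidd1 and -0.035 to 0.23 for Ei24. Between genotypes after 2 Gy it was -1.065 to 0.715 for Tnfrsf10b, -0.16 to 0.09 for Bbc3 and -0.525 to 0.105 for Pmaip1. Without irradiation it was -0.09 to 0.70 for Eda2r, -0.36 to 0.84 for Perp, -0.145 to 0.115 for Bbc3, -0.02 to 0.26 for Pmaip1 and -0.27 to 0.17 for Pidd1. In the interaction it was -0.695 to 1.085 for Tnfrsf10b, -0.165 to 1.035 for Perp and -0.15 to 0.11 for Bbc3. The 2 arrays in each group limit all of these differences.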
